A study of Mus musculus with 4 samples.

Results

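The 10 genes described here encode the MHC class II presentation machinery of the mouse. H2-Aa and H2-Ab1 encode the chains of the classical molecule I-A. H2-Eb1 encodes the beta chain of I-E. No gene of its alpha chain is among the 10, so H2-Eb1 RNA is not read here as a measure of I-E molecules. Cd74 encodes the invariant chain that accompanies the classical molecules. H2-DMa, H2-DMb1 and H2-DMb2 encode the peptide exchange factor H2-DM, H2-Oa and H2-Ob encode H2-O, and Ciita encodes the class II transactivator. The members were chosen by gene symbol from the 32285 genes listed in the files, and all 10 were found. Their levels were followed in liver B cells, dendritic cells, macrophages, monocytes and sinusoidal endothelium, with T cells and neutrophils, which are not known as class II presenting cells in the mouse, beside them.

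MHC class II molecules display peptides from endosomes to CD4+ T cells. The invariant chain fills the groove during assembly, H2-DM removes its remnant and edits the peptide cargo, and H2-O binds H2-DM and restrains it. CIITA does not bind DNA itself. It is held at the promoters of these genes by RFX, CREB and NF-Y proteins on a conserved array of boxes, and its amount largely sets how much class II RNA a cell makes. In the liver the best known class II expressing cells are dendritic cells, B cells, Kupffer cells and other macrophages, and sinusoidal endothelium has been discussed as a further one.

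Single-cell RNA sequencing was performed on perfused and enzyme-digested livers of male C57BL/6J mice. There was 1 library from mice on a normal chow diet (NCD), there were 2 from mice on a high-fat diet (HFD), and there was 1 from mice that received the high-fat diet and then, on top of it, Jiangtang Qingre Formula (JQF), a mixture prepared from several medicinal herbs. No allele or transgene is given for any group. NCD and JQF had no replicate, the HFD libraries entered both comparisons, and the group sizes in the study's methods count livers and match the libraries. The p-values below measure only the spread between these libraries. In the diet and treatment comparisons only the HFD pair gave replication, and edgeR drew on all genes to set each gene's spread. A small p-value there does not mean that the 2 HFD libraries were close for that gene.

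The kept cells were 5975 for NCD, 6516 and 10259 for HFD replicates 1 and 2, and 8540 for JQF, with 67615639 to 108062769 UMIs (distinct captured molecules) per library. Barcodes shared by 2 libraries numbered 14 to 30 per pair, at most 0.3335% of the smaller library. Cells were assigned to 16 populations by UMIs of marker genes, none of them a member, and 4448, 3976, 6643 and 5943 cells were assigned in the order NCD, HFD replicate 1, HFD replicate 2, JQF, which is used throughout. Markers that no gate had used were checked 208 times, where a library held at least 20 cells of the population. In 205 of these checks the level was higher in the gated cells than in the other gated cells of the library. The exceptions all lay in HFD replicate 2 and were Sirpa in cDC2 and Marco and Cd163 in Timd4- Kupffer-like cells. The labels call the material immune cells, yet liver sinusoidal endothelial cells (LSEC) made up 50.4% of the kept NCD cells, against 0.767% and 7.82% in HFD and 4.94% in JQF. The NCD library stood apart in other ways too. Its median depth was 13081 UMIs per cell against 7608 to 8884 in the others, and ribosomal protein genes took a smaller share of UMIs in every population compared below, for example 8.29% of B cell UMIs against 18.3%, 17.5% and 20.2%.

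Of the 10 genes, 8 lie within the H2 complex on chromosome 17 of GRCm38, from H2-Oa at 34092340-34095234 to H2-Eb1 at 34305867-34316674 (both on the plus strand). H2-Aa, at 34282744-34287823, is the only one of these 8 on the minus strand. Cd74 lies on chromosome 18 at 60803848-60812652 and Ciita on chromosome 16 at 10480059-10528418. Some members overlap other counted genes, H2-Eb1 with the antisense Gm20513, H2-DMa with Brd2 on the other strand and CR974462.3 on its own strand, H2-Oa with BC051537 and Ciita with Dexi, so reads could be shared there.

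H2-DMb1 and H2-DMb2 are neighbours and near copies, which bears on every value given for them. Their main GENCODE transcripts were identical at 94.6% of aligned positions, with a longest identical run of 221 bases. In the last 300 bases, where 3′ libraries draw most reads, identity was 79.1% and the longest identical run was 23 bases. How the counting divided reads of the identical stretches between the pair was not tested.

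The stretch before the RefSeq transcription start is shown for 6 members of chromosome 17 (GRCm38.p6, strand of the gene), because CIITA acts through it. These are the members whose RefSeq promoter held the CCAAT-type letters TGATTGG. Capitals mark TGATTGG and, upstream of it, GNAAC, the letters that open the X box. Both sets of letters were chosen after the sequences had been seen.
H2-Aa, chr17:34287867-34287913, minus strand: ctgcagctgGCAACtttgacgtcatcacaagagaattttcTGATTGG
H2-Eb1, chr17:34305766-34305812, plus strand: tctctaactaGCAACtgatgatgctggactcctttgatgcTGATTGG
H2-Oa, chr17:34092294-34092340, plus strand: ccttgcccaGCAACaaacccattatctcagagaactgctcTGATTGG
H2-Ob, chr17:34238806-34238852, plus strand: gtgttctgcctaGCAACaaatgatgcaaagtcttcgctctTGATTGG
H2-DMb2, chr17:34145117-34145163, plus strand: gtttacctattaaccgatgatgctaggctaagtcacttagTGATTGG
H2-DMb1, chr17:34153097-34153126, plus strand, upstream part only: GTAACtgatgatgctaggctgattcactca
TGATTGG began 45 to 92 bases before the RefSeq start. The gene positions given above are those of GENCODE, whose starts lie further upstream for H2-Oa, H2-DMb1 and H2-DMb2. By GENCODE the H2-Oa stretch ends on the first base of the gene (34092340). The stretches of H2-DMb1 (gene start 34153072) and H2-DMb2 (34143307) lie inside the genes, that of H2-DMb1 in an exon. GNAAC stood 28 to 31 bases before TGATTGG in 5 of the 6, and H2-DMb2 held no GNAAC at 25 to 45 bases. In the 250 bases before the start, H2-DMb1 and H2-DMb2 were identical at 83.7% of aligned positions. Over 32851 promoter windows of the same length, on either strand, TGATTGG was found in 7.23%, GNAAC in 79.6% and the pair at 25 to 45 bases in 0.487%. The windows of H2-DMa held no TGATTGG. A match is a description of letters and not of a bound site.

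By HFD mean over the 13 populations with at least 20 cells in both HFD libraries, conventional dendritic cells carried the most RNA of Cd74 and the classical chains, and LSEC, T cells and neutrophils the least. Levels are given as UMIs per 1000000 UMIs of the population (CPM), and they are compared between populations and not between genes, since 3′ counts depend on the gene. Cd74 stood at 9770.4, 16088, 16052 and 17657 CPM in cDC2, dendritic cells that present mainly to CD4+ T cells. In cDC1, which specialise in cross-presentation, it stood at 9413, 13785, 14114 and 13504 CPM. The NCD library was the lowest of the 4 in both. B cells gave 3862, 8256, 7299 and 9228 CPM and plasmacytoid dendritic cells (pDC), the type I interferon producers, gave 2730.4, 4072, 4461 and 3625 CPM.

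Among the macrophage subsets with at least 20 cells in 3 libraries, Cd74 was highest in cells that carried Cx3cr1 and Ccr2, markers of recent monocyte origin, at 12323 and 11961 CPM in HFD and 16289.7 CPM in JQF. NCD held only 2 such cells. Cells with Trem2 and Gpnmb, the lipid-associated type, gave 8689, 8919.7 and 9747 CPM in the same 3 libraries. Clec4f-carrying Kupffer-like cells without Timd4 gave 6683, 7232 and 6895 CPM. Timd4+ Kupffer cells, the long-lived resident type, gave 3362, 4164 and 3739 CPM in NCD, HFD replicate 2 and JQF, and HFD replicate 1 held 4 of them. Macrophages with Cxcl9, an interferon-inducible chemokine, numbered 4, 14, 58 and 14 cells, and only HFD replicate 2 reached the minimum of 20 cells, with 12459 CPM, above the Cx3cr1 Ccr2 macrophages of that library. In JQF, Cx3cr1 Ccr2 macrophages exceeded cDC1 for Cd74, H2-Aa and H2-Eb1. Classical monocytes gave 1909.7, 3511 and 2918 CPM in HFD and JQF, so that the HFD replicates differed from each other by more than either did from JQF.

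**Figure D1:**
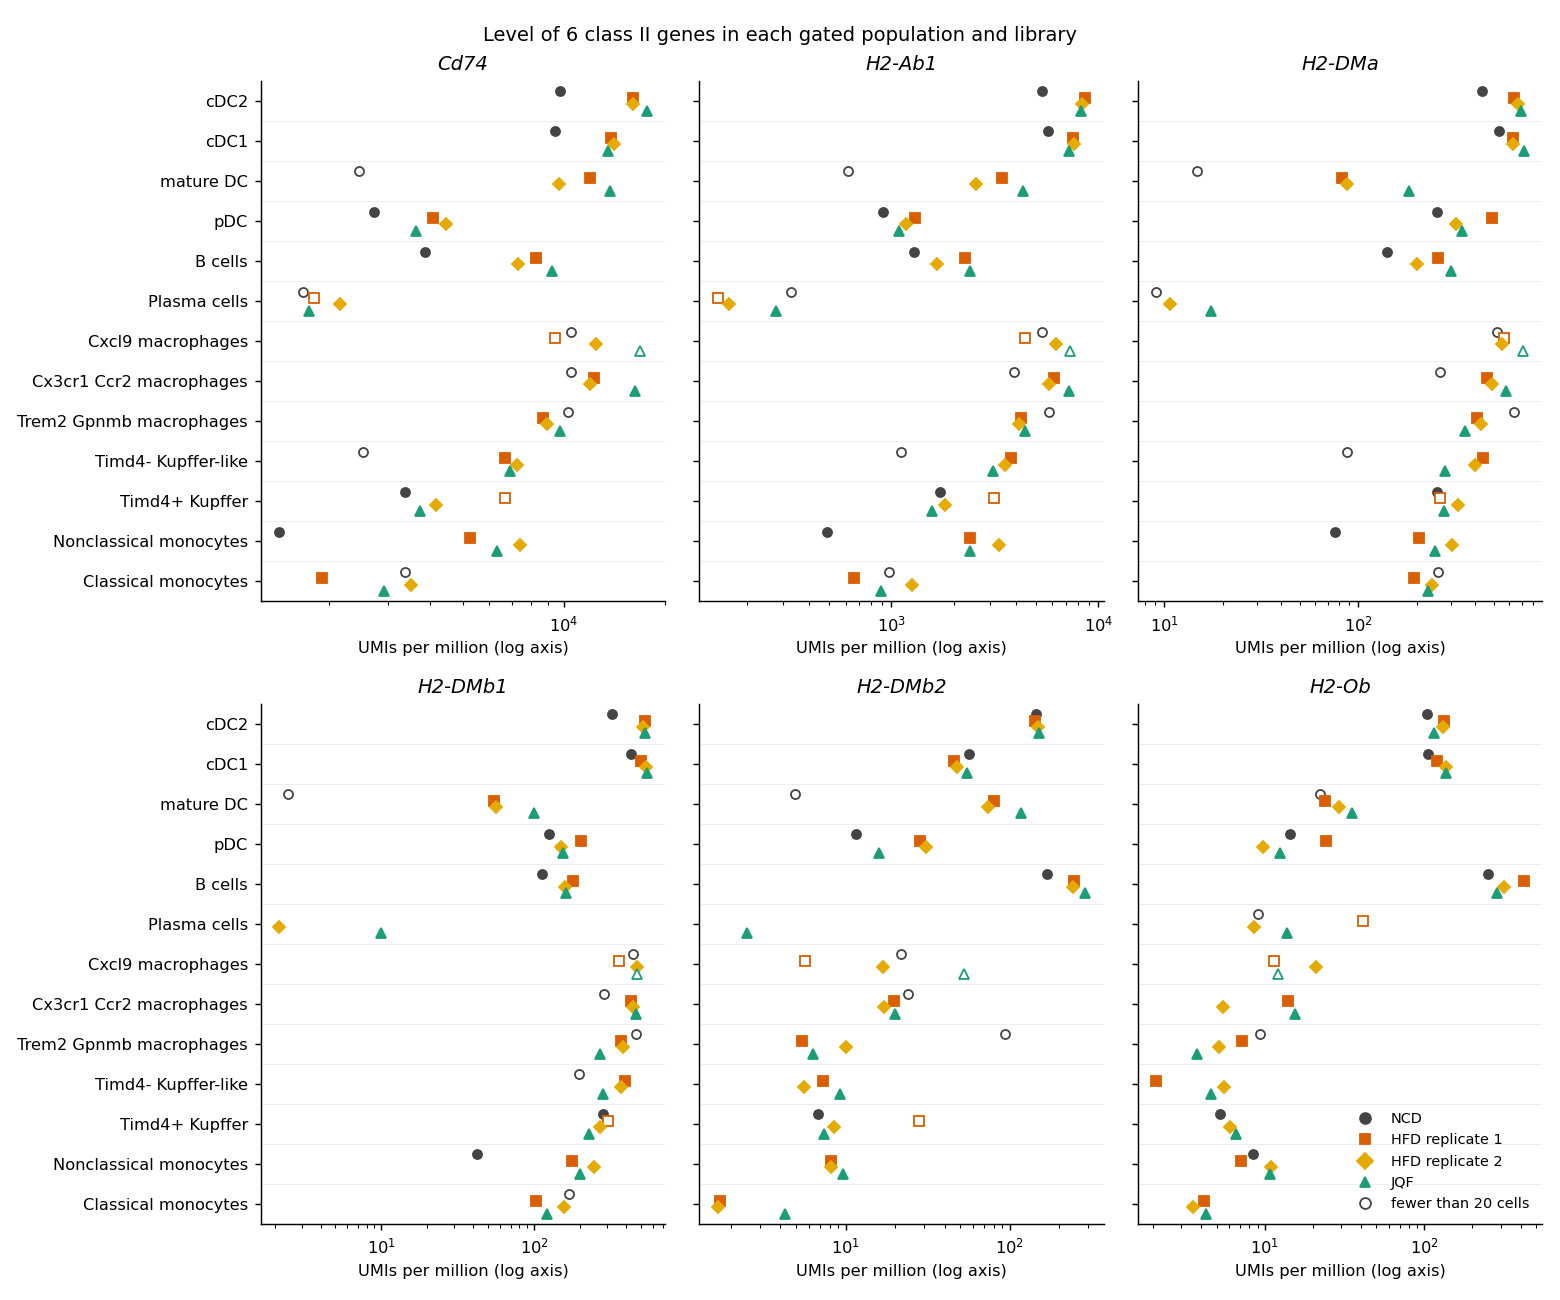
UMIs per 1000000 UMIs (log axis) of Cd74, H2-Ab1, H2-DMa, H2-DMb1, H2-DMb2 and H2-Ob in each gated population, with 1 symbol per library and hollow symbols for fewer than 20 cells; points at 0 are not drawn. In both HFD libraries Cd74 and H2-Ab1 are highest in cDC2 and cDC1, and H2-DMb2 and H2-Ob are highest in B cells.

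The order by HFD mean (n = 2) was nearly the same for Cd74, H2-Aa, H2-Ab1 and H2-Eb1. For Cd74 it ran from cDC2 at 16069.6 ± 25.3 CPM (SD) through cDC1 at 13949.7 ± 233, Cx3cr1 Ccr2 macrophages at 12142 ± 256 and mature dendritic cells at 10843 ± 1612 to Trem2 Gpnmb macrophages at 8804 ± 163 and B cells at 7777 ± 677. Among these, the ranges of Cx3cr1 Ccr2 macrophages and mature dendritic cells overlapped. Lower down, Timd4- Kupffer-like cells (6958 ± 388) overlapped nonclassical monocytes (6336 ± 1528), and pDC (4267 ± 275) stood above classical monocytes (2710.4 ± 1132). H2-Aa, H2-Ab1 and H2-Eb1 also had cDC2, cDC1 and Cx3cr1 Ccr2 macrophages as their leading 3 populations, in that order.

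The library was the replicate in tests between populations, which used edgeR's quasi-likelihood test over 15762 genes on 53 population sums with the library as a block. Over 10 contrasts, 55 of 100 member tests passed an adjusted p of 0.05, 23 higher and 32 lower, against 22.9% of all gene tests. The differences below are log2 values of the first population over the second.

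cDC1 and cDC2 differed in 2 of the 10 members, both lower in cDC1, where 15.0% of all genes were called and 8.27% were lower. H2-DMb2 stood at 56.2, 45.4, 47.6 and 54.6 CPM in cDC1 and at 143, 142, 147 and 151 CPM in cDC2, a log2 difference of -1.44 ± 0.25 (SE, adjusted p = 3.6e-05, edgeR). H2-Oa stood at 72.6, 83.3, 77.0 and 80.3 CPM in cDC1 and at 149.6, 202, 178 and 164 CPM in cDC2, a log2 difference of -1.06 ± 0.26 (adjusted p = 0.0025, edgeR). For both genes the 4 libraries of cDC1 lay below all 4 of cDC2. Without HFD replicate 1 the adjusted p of H2-Oa was 0.088. Ciita gave -0.34 ± 0.30 (adjusted p = 0.53, edgeR) and the classical chains and Cd74 were likewise not called.

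Mature dendritic cells, which carry Ccr7 and Fscn1 and have left the antigen-sampling state, differed from cDC2 member by member. They numbered 111, 129 and 105 in HFD and JQF, and the 16 NCD cells were left out of the test. Cd74 stood at 11983, 9703 and 13739.9 CPM there, H2-Aa at 5512, 4763 and 6294 CPM and H2-Eb1 at 6323, 5304 and 6301 CPM, and none of the 3 passed the test against cDC2. H2-DMa stood at only 82.4, 87.5 and 184 CPM, against 636, 670 and 694 CPM in cDC2 of the same libraries. H2-DMb1 stood at 54.6, 56.7 and 99.7 CPM against 529, 516 and 529 CPM.

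The genes of the peptide exchange factor thus lay below cDC2 in each of the 3 libraries. By edgeR, H2-DMb1 differed by -2.68 ± 0.33 (adjusted p = 1.4e-08), H2-DMa by -2.30 ± 0.27 (6.8e-09), H2-Ob by -1.86 ± 0.22 (4.8e-09) and H2-Oa by -1.59 ± 0.30 (4.7e-05). Ciita (-1.36 ± 0.34, adjusted p = 0.0018, edgeR) and H2-Ab1 (-1.17 ± 0.39, 0.019) were also lower. In all 6 of 10 members were called, each lower, where 31.6% of genes were called and 16.1% were lower. H2-DMb2, at 79.9, 73.4 and 117 CPM, differed by -0.54 ± 0.27 (adjusted p = 0.13, edgeR). The call of Ciita was lost without HFD replicate 1 (adjusted p = 0.072) and without HFD replicate 2 (0.061), and that of H2-Ab1 without any one of HFD replicate 1 (0.13), HFD replicate 2 (0.14) or JQF (0.071). H2-Eb2, a further class II beta gene of the locus, was 4.15 ± 0.38 higher in mature dendritic cells on the log2 scale (adjusted p = 1.3e-11, edgeR), and March1, the ligase that sends surface class II for degradation, was lower, at -3.38 ± 0.30 (adjusted p = 1.1e-11).

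B cells showed another balance of the members. Against cDC2 they had lower levels of 8 members, among them H2-Ab1 (-2.22 ± 0.36), Ciita (-1.54 ± 0.31) and Cd74 (-1.29 ± 0.29 on the log2 scale), where 36.8% of all genes were called. H2-Ob was the exception in the other direction. It stood at 250.5, 421, 316 and 285 CPM in B cells and at 103, 132, 130.1 and 115 CPM in cDC2, so that every B cell value exceeded every cDC2 value (log2 difference 1.20 ± 0.18, adjusted p = 7.9e-07, edgeR). H2-DMb2 stood at 168, 247, 242 and 289 CPM in B cells and also lay above all cDC2 values, with a log2 difference of 0.49 ± 0.24 that did not pass (adjusted p = 0.11).

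In pDC all 10 members were lower than in cDC2, where 26.5% of genes were called and 15.1% were lower. The log2 differences ran from -1.02 ± 0.23 for H2-DMa to -3.43 ± 0.40 for H2-Eb1. H2-DMa, at 254, 491, 318 and 344 CPM, was the member with the smallest deficit, and H2-Ob, at 14.4, 24.1, 9.67 and 12.5 CPM, rested on 5 to 22 UMIs per library.

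Plasma cells, the antibody-secreting end of the B lineage, numbered 4, 4, 22 and 30, and no test was run on them. Cd74 stood at 2159 and 1746 CPM in HFD replicate 2 and JQF, the libraries with at least 20 such cells. Ciita gave 0 UMIs in 3 libraries and 1 UMI in JQF, and H2-Oa gave 0 in all 4. H2-DMb2 gave 2 UMIs, both in JQF. Prdm1, which encodes the factor that silences Ciita in this lineage, stood at 154 and 105 CPM there. Cd74 RNA was thus counted in cells with almost no counted Ciita RNA.

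No member was called in either contrast run among Kupffer-like and Trem2 Gpnmb cells, and Trem2 Gpnmb macrophages were not tested against Timd4+ Kupffer cells. Between Timd4- Kupffer-like and Timd4+ Kupffer cells 0 members passed, at 0.336% of genes called, and Cd74 differed by 0.42 ± 0.34 on the log2 scale (adjusted p = 0.90, edgeR). Only HFD replicate 2 and JQF held enough cells of both, since NCD held 9 Timd4- cells and HFD replicate 1 held 4 Timd4+ cells. In these libraries Cd74 stood at 7232 and 6895 CPM in Timd4- cells against 4164 and 3739 CPM. The other members were higher in Timd4- cells in both libraries too, except H2-DMb2, H2-Oa and H2-Ob. Between Trem2 Gpnmb macrophages and Timd4- Kupffer-like cells 0 members passed at 2.06% of genes called, with Cd74 at 0.48 ± 0.33 (adjusted p = 0.57). With standard errors of this size, smaller differences were not detectable. Cx3cr1 Ccr2 macrophages against classical monocytes was a different case, with all 10 members higher, where 7.35% of all genes were called and 3.88% were higher. H2-Eb1 stood at 6214, 6110.2 and 7662 CPM in these macrophages, and the log2 difference was 3.10 ± 0.45 (adjusted p = 6.6e-06, edgeR). Cd74 differed by 2.20 ± 0.34 (adjusted p = 1.8e-05), Ciita by 2.00 ± 0.37 (0.00022) and H2-DMa by 1.09 ± 0.27 (0.0066). Calls of 3 members were lost without 1 library. H2-DMa had an adjusted p of 0.19 without HFD replicate 1, 0.13 without HFD replicate 2 and 0.11 without JQF, H2-Ob had 0.20 without HFD replicate 1 and 0.25 without JQF, and H2-DMb1 had 0.075 without HFD replicate 1. Dendritic cell markers, in a list chosen after the levels had been seen, summed to 204, 62.5 and 219 CPM in these macrophages, and their part in the result was not tested.

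Nonclassical monocytes, which patrol the vessel wall, exceeded classical monocytes in 3 members at 0.876% of genes called and 0.615% higher. NCD entered on the nonclassical side only, with 35 cells, since it held 8 classical monocytes. In the HFD and JQF libraries every member stood higher in nonclassical cells. There Cd74 stood at 5256, 7417 and 6311 CPM against 1909.7, 3511 and 2918 CPM, and it was not called. H2-Oa differed by 2.52 ± 0.52 (adjusted p = 0.0087, edgeR), H2-DMb2 by 1.70 ± 0.44 (0.047) and H2-Ob by 1.30 ± 0.29 (0.017). All 3 were sparse genes in monocytes, under 12 CPM in every nonclassical library. Each was lost without HFD replicate 1 (adjusted p 0.36, 0.50 and 0.083) and without HFD replicate 2 (0.21, 0.41 and 0.28). Without JQF, H2-DMb2 (0.19) and H2-Ob (0.30) were lost as well. Ciita differed by 0.99 ± 0.34 (adjusted p = 0.19), and without NCD by 1.19 (0.0044).

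Ciita, the regulator, was highest by HFD mean in the same 3 populations as the classical chains and Cd74. In cDC2 it stood at 263, 480.0, 451 and 266 CPM and in cDC1 at 196, 351, 306 and 229 CPM. In both, the 2 HFD libraries lay above NCD and above JQF. B cells gave 60.6, 239, 176 and 126 CPM, and Cx3cr1 Ccr2 macrophages gave 251, 227 and 241 CPM in HFD and JQF. By HFD mean (n = 2) the order ran from cDC2 (466 ± 20.3 CPM, SD) and cDC1 (328 ± 31.8) through Cx3cr1 Ccr2 macrophages (239 ± 16.6), B cells (207 ± 44.5) and nonclassical monocytes (160 ± 3.34) to mature dendritic cells (122 ± 21.003), Trem2 Gpnmb macrophages (118 ± 7.26) and Timd4- Kupffer-like cells (107 ± 19.4). The HFD ranges overlapped between Cx3cr1 Ccr2 macrophages and B cells, between mature dendritic cells and Trem2 Gpnmb macrophages, between the latter and Timd4- Kupffer-like cells, and between pDC (62.0 ± 23.9) and classical monocytes (59.7 ± 19.1). T cells (1.76), LSEC (0.717) and neutrophils (0.495) were near 0. Timd4+ Kupffer cells gave 64.5, 40.9 and 34.0 CPM in NCD, HFD replicate 2 and JQF.

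**Figure D2:**
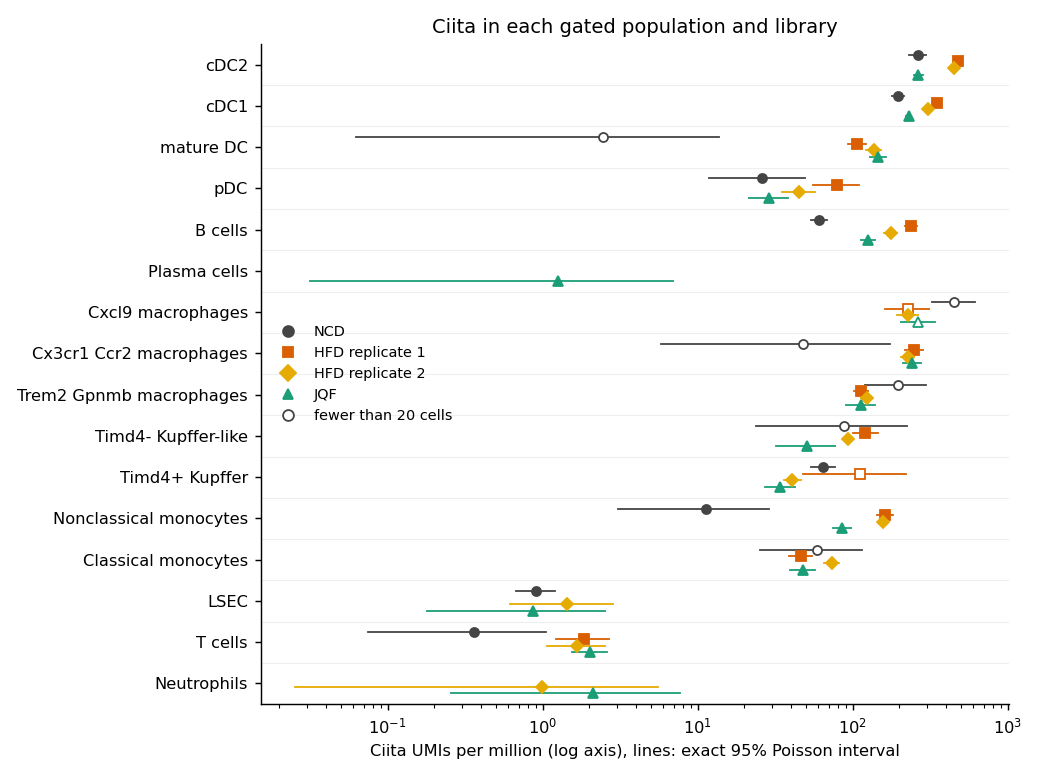
Ciita UMIs per 1000000 UMIs (log axis) in 16 populations, 1 symbol per library, with exact 95% Poisson intervals that cover counting error only. In cDC1, cDC2, B cells, pDC and nonclassical monocytes the NCD symbol is the lowest of the 4, and the JQF symbol lies below both HFD symbols.

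The share of the beta chain of H2-DM that came from H2-DMb2 differed widely between populations. It is the share of H2-DMb2 in the UMIs of H2-DMb1 and H2-DMb2. In B cells it was 59.8%, 57.9%, 60.5% and 64.1%, and in mature dendritic cells 59.4%, 56.4% and 54.0% (HFD and JQF). cDC2 gave 30.6%, 21.1%, 22.2% and 22.2%, cDC1 11.6%, 8.31%, 8.07% and 9.08%, and pDC 8.51%, 12.3%, 17.2% and 9.36%. In macrophages and monocytes with at least 20 cells it lay between 1.04% and 4.63%, apart from NCD nonclassical monocytes, where none of 15 UMIs came from H2-DMb2. The ranges of B cells, cDC2 and cDC1 did not overlap. How reads shared by these near copies were divided was not tested.

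Among B cells, dendritic cells, macrophages and monocytes, the inhibitor was most abundant relative to its target in B cells. H2-Oa and H2-Ob together gave 72.7, 78.1, 65.6 and 51.5 UMIs per 100 UMIs of the 3 H2-DM genes in B cells. cDC2 gave 28.0, 25.5, 23.1 and 20.3 and cDC1 gave 17.5, 17.3, 17.5 and 16.5. Mature dendritic cells gave 31.7, 35.6 and 24.6, above cDC1 in every library. pDC gave 19.3, 9.09, 12.95 and 11.8. JQF was the lowest library in B cells, cDC2, cDC1 and mature dendritic cells. Elsewhere it held no fixed place. Macrophages and monocytes gave 0.498 to 4.20, apart from 7.14 in NCD nonclassical monocytes, which rested on 3 UMIs. These ratios compare populations and say nothing of the proteins.

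**Figure D3:**
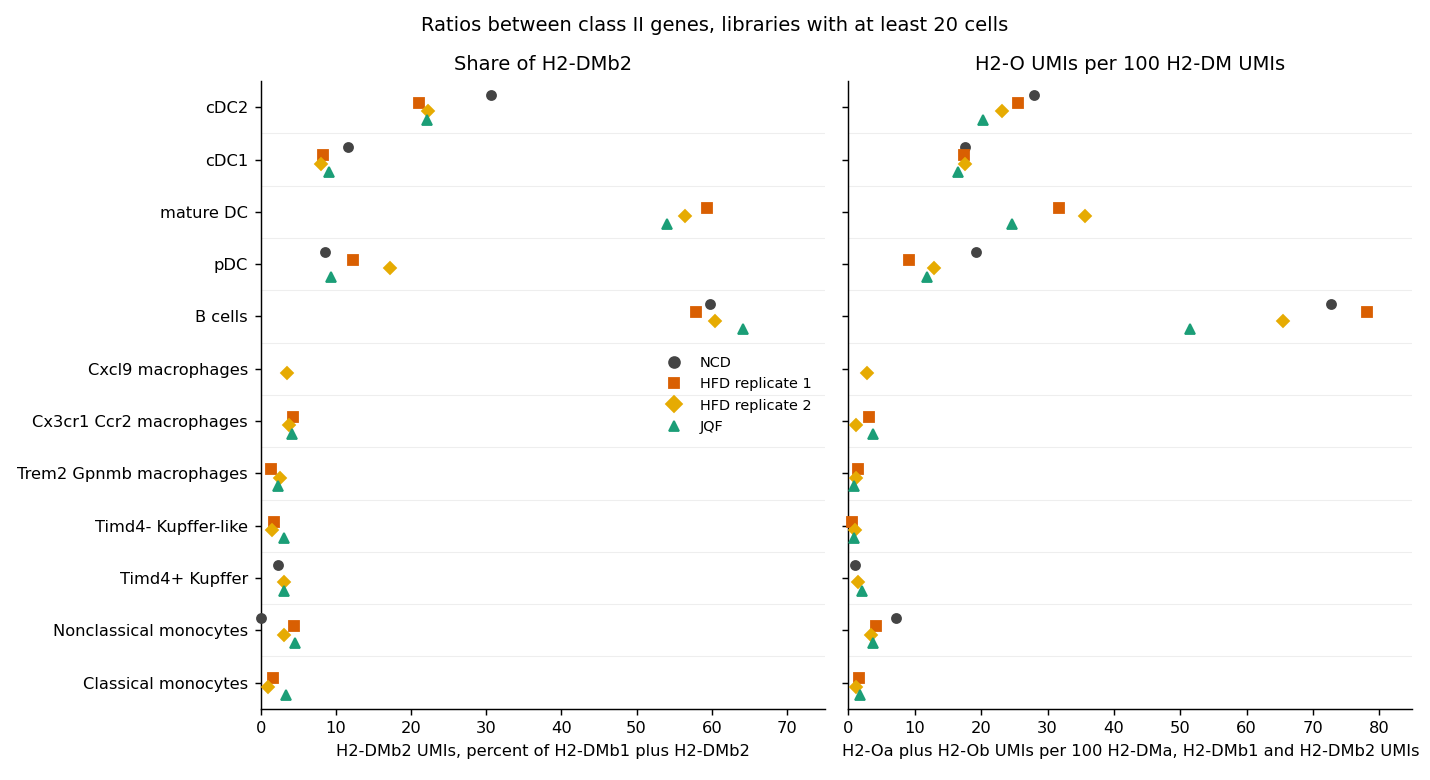
Left, H2-DMb2 as a percentage of H2-DMb1 plus H2-DMb2 UMIs; right, H2-Oa plus H2-Ob UMIs per 100 UMIs of the 3 H2-DM genes, in B cells, dendritic cells, macrophages and monocytes, 1 symbol per library with at least 20 cells. B cells and mature dendritic cells lie highest on the left and B cells on the right, with macrophages and monocytes near 0 on both.

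The diet comparison asked whether the members differed between HFD and NCD within a population. With 1 NCD library, the 2 HFD libraries gave the only residual degree of freedom in edgeR's quasi-likelihood fit. Over 8 populations with at least 20 cells in every library, 19 of 71 member tests were called and all 19 were higher in HFD. Of all gene tests, 9.76% were called and 3.93% were higher. In B cells, cDC1, cDC2, pDC and nonclassical monocytes, NCD lay below both HFD libraries in 5 of 5 populations for Ciita, Cd74, H2-Ab1, H2-Eb1, H2-DMa and H2-DMb1, in 4 for H2-Aa and H2-Oa and in 3 for H2-DMb2 and H2-Ob. Between 37.7% and 49.95% of genes at 20 CPM or more did so in these populations. The share of ribosomal protein UMIs was lower in NCD in the same populations, and its part in the result was not tested.

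Among B cells, cDC1, cDC2, pDC and nonclassical monocytes, the last had the largest median difference over the members. H2-Aa stood at 587 CPM in NCD, 2222 and 3558 CPM in HFD and 2718 CPM in JQF. H2-Eb1 stood at 341, 2158, 3105 and 2037 CPM and Cd74 at 1422, 5256, 7417 and 6311 CPM. NCD lay well below the other 3 libraries in each. Ciita gave 4 UMIs in NCD (11.3 CPM, exact 95% Poisson interval 3.08 to 28.9) and 162, 157 and 85.8 CPM in the others.

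By edgeR, 7 members were higher in HFD nonclassical monocytes, where 19.0% of genes were called and 9.47% were higher. The log2 differences were 3.75 ± 0.55 for Ciita (adjusted p = 1.2e-07), 2.89 ± 0.39 for H2-Eb1 (1.9e-08), 2.49 ± 0.38 for H2-Ab1 (3.9e-07), 2.27 ± 0.42 for H2-DMb1 (3.1e-05), 2.24 ± 0.38 for H2-Aa (3.6e-06), 2.10 ± 0.38 for Cd74 (1.7e-05) and 1.69 ± 0.38 for H2-DMa (0.00061). The median over all 10 members was 2.38 and that over all genes 0.28, or 0.34 with library totals in place of TMM scaling. H2-Ob gave 0.08 ± 0.88 (adjusted p = 0.97), and H2-DMb2 and H2-Oa gave 0 UMIs in NCD, where 3 UMIs, the upper limit that a count of 0 allows, equal 8.47 CPM, so no fold is given for them. NCD held 35 such cells. Macrophage markers in them, from a list of 6 genes chosen after the levels had been seen, summed to 0 CPM in NCD with all 6 at 0 and to 47.5, 116 and 80.6 CPM in the others, and dendritic markers to 5.64, 27.8, 40.6 and 56.5 CPM. The gate allowed no Flt3, a dendritic marker, and few UMIs of C1qa, C1qb and C1qc, which are macrophage markers. It thus set part of both sums. The part of these markers in the result was not tested.

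Per cell the difference was one of the middle of the distribution and not of a few bright cells alone. The summed UMIs of H2-Aa, H2-Ab1, H2-Eb1 and Cd74 per 10000 UMIs had a median of 2.19 over NCD nonclassical monocytes and of 30.5, 88.8 and 44.5 in the other libraries. Cells without any of these UMIs made up 28.6%, 7.76%, 2.67% and 4.23%. The cells were still very uneven. In HFD replicate 2 the 10th and 90th percentiles were 4.08 and 393, and the 10% of cells with the most held 84.0%, 55.4%, 40.5% and 43.6% of the class II UMIs, against 17.7% to 20.1% in cDC1. After each cell was thinned to 2000 UMIs, H2-Aa was detected in 20.0% of NCD cells (exact binomial 95% interval 8.44% to 36.9%) and in 53.7% (47.0% to 60.3%), 68.8% (64.2% to 73.1%) and 56.9% (49.9% to 63.7%) of the others. Unthinned shares were 37.1%, 64.7%, 79.1% and 69.5%. In thinned T cells the shares were 1.14%, 4.89%, 9.28% and 4.40%.

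**Figure D4:**
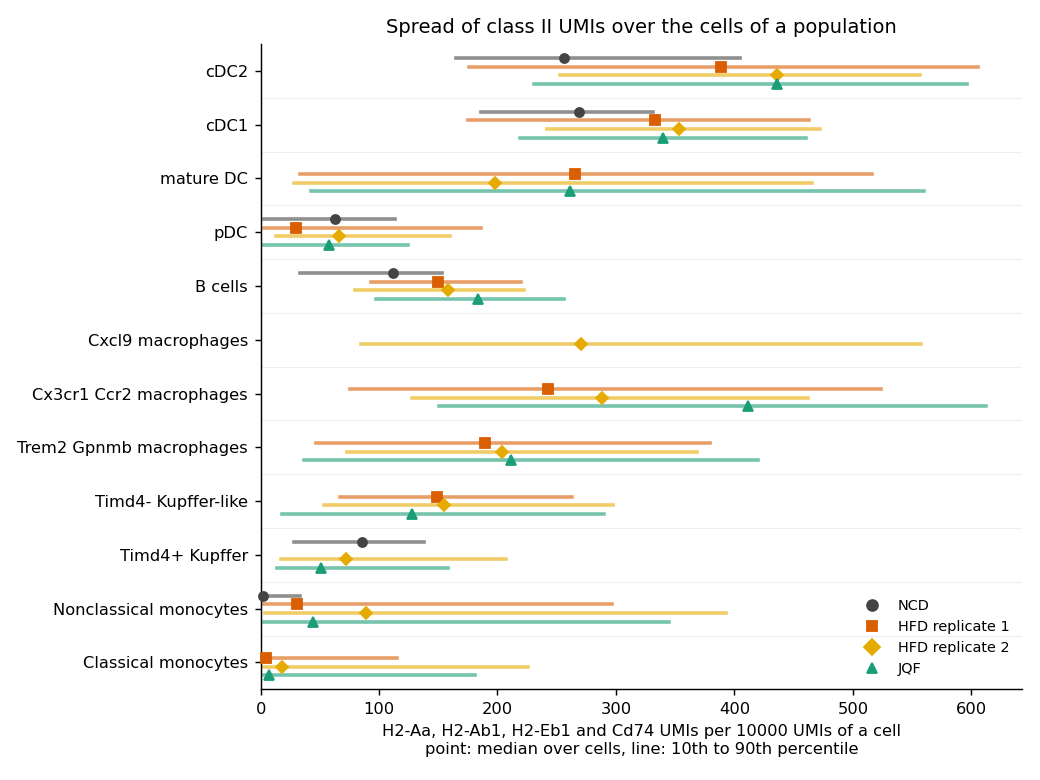
Summed UMIs of H2-Aa, H2-Ab1, H2-Eb1 and Cd74 per 10000 UMIs of a cell, by population and library, as the median (symbol) and the 10th to 90th percentiles over cells (line). cDC1 and cDC2 have medians between 256 and 436 and ranges well clear of 0, and nonclassical monocytes have medians of 2.19 to 88.8 with ranges that start near 0 and reach 393 in HFD replicate 2.

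In cDC2, 4 members passed. Ciita rose from 263 CPM in NCD to 480.0 and 451 CPM in HFD (log2 difference 0.72 ± 0.16, adjusted p = 0.039, edgeR), and Cd74 from 9770.4 to 16088 and 16052 CPM (0.62 ± 0.10, 0.018). H2-Eb1 (0.58 ± 0.12, 0.028) and H2-Ab1 (0.57 ± 0.11, 0.029) were higher too. At 16.7% of genes called and 6.38% higher, the members' median was 0.53, against 0.09 over all genes or 0.18 with library totals. None of the 4 was called by DESeq2, with adjusted p from 0.22 to 0.35. In cDC2 dendritic markers summed to 821 CPM in NCD and 1121 and 1179.96 CPM in HFD. Macrophage markers summed to 5.16, 19.2 and 71.7 CPM in these libraries. The lists were chosen after the levels had been seen. The cDC2 gate asked for Flt3 and Cd209a and allowed no Xcr1 or Clec9a and few UMIs of C1qa, C1qb and C1qc. It thus set part of both sums. The part of these markers in the result was not tested. H2-DMb2, at 143, 142 and 147 CPM, gave -0.09.

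In B cells and cDC1 no member was called by edgeR. On simulated counts the same kind of fit called 24.7% and 18.2% of 2-fold changes. Those counts had a preset spread, the same for every gene, so these shares are not detection rates for the real counts. In B cells Ciita stood at 60.6 CPM in NCD and 239 and 176 CPM in HFD (log2 difference 1.81 ± 0.27, adjusted p = 0.087, edgeR), and Cd74 gave 1.05 ± 0.14 (0.087). In the same cells 5 B cell markers summed to 1997 CPM in NCD and 4093 and 3708 CPM in HFD. The 6 dendritic markers summed to 160.4 CPM in NCD and 80.1 and 52.8 CPM in HFD. Both lists were chosen after the levels had been seen. Cd79a, Cd79b and Ms4a1 of the first list were also used by the B cell gate. The dendritic list summed to 400, 443, 477 and 546 CPM in LSEC, so it did not mark dendritic cells alone. The part of both lists in the result was not tested. In B cells 0 of 12159 genes passed by edgeR, 3115 had an unadjusted p under 0.05, and DESeq2 called 463, Ciita (adjusted p = 0.0046) and Cd74 (0.0014) among them. cDC1 gave 0.69 ± 0.18 for Ciita (adjusted p = 0.076, edgeR) and 0.52 ± 0.14 for Cd74 (0.084), with 0 members called by either tool, 2 at an unadjusted p under 0.05, 10.1% of genes called and a median over the members of 0.24. In pDC 0 members were called by either tool and 0 had an unadjusted p under 0.05, at 3.83% of genes called.

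LSEC and T cells also gave calls, at levels far below those of dendritic cells. In LSEC, 4 of the 7 members tested were higher in HFD, where 15.8% of genes were called and 6.43% were higher. Cd74 stood at 6.91 CPM in NCD (381 UMIs over 3013 cells), at 48.9 CPM in HFD replicate 1 (16 UMIs over 50 cells), at 83.4 CPM in HFD replicate 2 and at 31.1 CPM in JQF. The log2 differences between HFD and NCD were 3.30 ± 0.27 for Cd74 (adjusted p = 2.7e-31, edgeR), 3.25 ± 0.35 for H2-Eb1 (9.0e-19), 3.04 ± 0.30 for H2-Ab1 (2.2e-21) and 2.99 ± 0.32 for H2-Aa (1.5e-18). Without HFD replicate 2 they were 2.63, 2.33, 2.99 and 1.70. In T cells the same 4 genes were called at 9.06% of genes called and 2.91% higher. They were H2-Ab1 (3.11 ± 0.25, adjusted p = 0.0010), H2-Eb1 (2.96 ± 0.24, 0.0010), H2-Aa (2.91 ± 0.30, 0.0025) and Cd74 (1.59 ± 0.19, 0.0043), and Cd74 stood at 26.9, 85.5, 83.3 and 85.2 CPM. In HFD replicate 1 and JQF a few T cells carried much of this RNA. The 3 highest cells held 10.5%, 28.0%, 3.45% and 31.5% of the summed UMIs of these 4 genes. In neutrophils, with Cd74 at 55.7, 168, 185 and 178 CPM, 0 of 7786 genes passed by edgeR, 1067 had an unadjusted p under 0.05, DESeq2 called 120, and Cd74 gave 1.94 (adjusted p = 0.25).

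RNA outside cells moved in the same direction. In droplets with 1 to 100 UMIs, Cd74 stood at 1093, 4438, 4596 and 2975 CPM. Its ratio of the HFD mean to NCD was 4.13 there, 9.58 in LSEC, 3.14 in T cells and 3.17 in neutrophils. Its ratio of JQF to the HFD mean was 0.659, 0.470, 1.01 and 1.01. In the same order, H2-Ab1 gave 4.03, 9.08, 8.99 and 7.92 for HFD over NCD. H2-Eb1 gave 4.304, 8.87, 8.101 and 7.43, and H2-Aa gave 3.64, 6.9996, 7.82 and 3.87. For JQF over HFD, H2-Ab1 gave 0.616, 0.4104, 0.895 and 0.738. H2-Eb1 gave 0.595, 0.521, 0.896 and 0.788, and H2-Aa gave 0.642, 0.512, 0.965 and 0.528. Among these genes LSEC and T cells lay furthest apart for Cd74. Macrophage markers, from the list of 6 genes, summed to 12.1, 30.6, 146 and 34.3 CPM in LSEC and to 11.4, 21.8, 104 and 18.2 CPM in T cells. Both gates allowed few UMIs of C1qa, C1qb and C1qc, which are in that list. In LSEC, HFD replicate 2 was the highest library for Cd74, H2-Aa and H2-Eb1 and for macrophage RNA, whereas H2-Ab1 was alike in both HFD libraries (61.1 and 61.0 CPM). The LSEC values of HFD replicate 1 rested on 50 cells with 327135 UMIs in all, so their counting error was wide. How much of the LSEC and T cell values came from free RNA was not tested.

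Between LSEC and T cells, 5 of 10 members were lower in LSEC, where 59.3% of genes were called and 31.6% were lower. H2-Oa (-3.99 ± 0.50) and H2-DMa (-1.56 ± 0.27) led, and Cd74 gave -1.07 ± 0.30 (adjusted p = 0.0024, edgeR). Leaving out JQF ended the calls of Cd74 (0.076), H2-DMb2 (0.38) and H2-Ob (0.092), leaving out HFD replicate 1 that of H2-DMb2 (0.079), and leaving out NCD that of H2-Ob (0.36). H2-Aa, H2-Ab1, H2-Eb1, H2-DMb1 and Ciita were not called, with differences from -0.22 ± 0.37 to -0.59 ± 0.39. No member was called higher in LSEC than in T cells. Ciita in LSEC rested on 50, 0, 8 and 3 UMIs. Classical monocytes against T cells gave a scale for these values, with 49.3% of genes called and 9 members higher, among them Cd74 by 5.35 ± 0.35. H2-Oa was lower in classical monocytes by -1.35 ± 0.50 (adjusted p = 0.023), a call lost without HFD replicate 1 (0.19) or HFD replicate 2 (0.11).

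**Figure D5:**
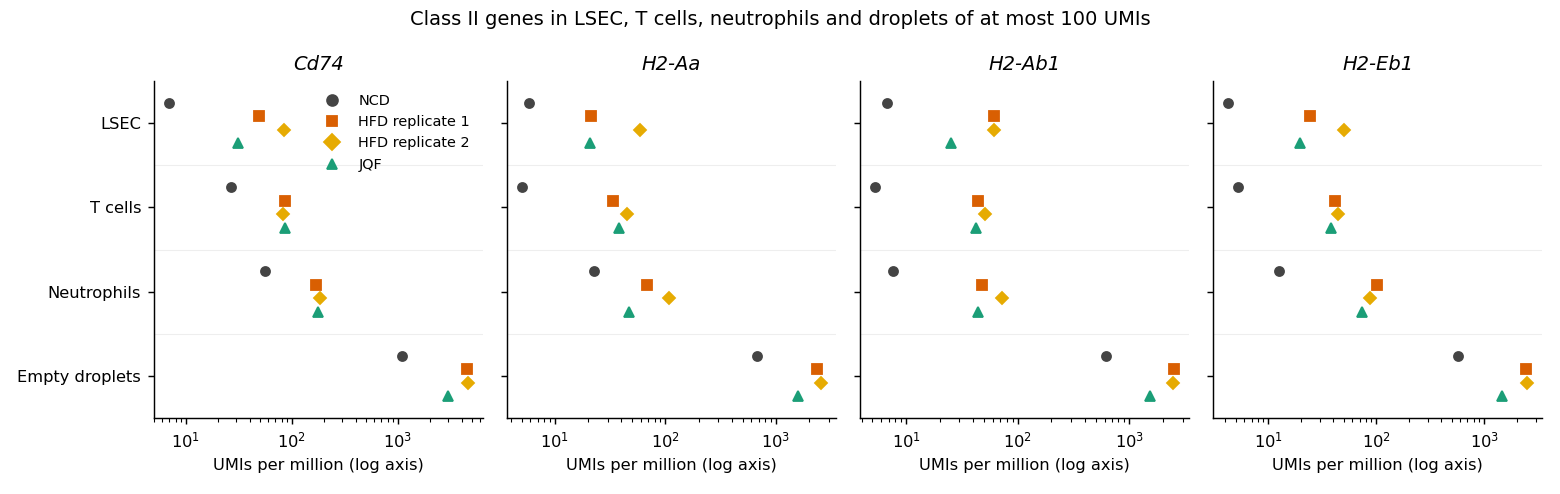
UMIs per 1000000 UMIs (log axis) of Cd74, H2-Aa, H2-Ab1 and H2-Eb1 in LSEC, T cells, neutrophils and droplets with 1 to 100 UMIs, 1 symbol per library. The droplets outside cells lie far above the 3 cell populations, and NCD is the lowest library in every panel.

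The treatment comparison asked whether JQF differed from HFD. The HFD libraries were shared with the diet comparison, so calls in the one are not independent of calls in the other. Over the same 8 populations 4 of 71 member tests were called, all 4 in LSEC and all lower in JQF, against 0.937% of all gene tests called and 0.336% lower. In LSEC itself 1.86% of genes were called and 1.00% were lower. The log2 differences were -1.27 ± 0.27 for Cd74 (adjusted p = 0.00050, edgeR), -1.29 ± 0.33 for H2-Aa (0.0082), -1.28 ± 0.31 for H2-Ab1 (0.0039) and -1.19 ± 0.35 for H2-Eb1 (0.039). These 4 genes were also the ones called higher in HFD than in NCD in LSEC, on the same HFD libraries. H2-Aa stood at 21.4 CPM in HFD replicate 1, on 7 UMIs, at 59.6 CPM in HFD replicate 2 and at 20.7 CPM in JQF. Without HFD replicate 2, H2-Aa gave 0.02, H2-Eb1 -0.25, Cd74 -0.59 and H2-Ab1 -1.22, with no test, and DESeq2 called none of the 4.

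Ciita was below both HFD libraries in JQF in 6 of 10 populations, above both in 1 and between them in 3, and no difference passed the test. In 10 populations, 32.9% to 53.2% of genes at 20 CPM or more lay below both. cDC2 gave a log2 difference of -0.68 ± 0.16 (adjusted p = 0.21, edgeR, at 0.219% of genes called) and nonclassical monocytes -0.84 ± 0.29 (0.081, at 4.31%). B cells gave -0.61 ± 0.25 (0.89), cDC1 -0.44 ± 0.17 (0.63) and pDC -0.97 ± 0.43 (0.96, at 0.230%). T cells gave 0.30 (0.99, at 0.812%), on a Ciita level near 2 CPM. With no filter on low counts the adjusted p in cDC2 was 0.048. In B cells, cDC1 and neutrophils edgeR called 0 genes, while 606, 1078 and 66 genes had an unadjusted p under 0.05 and DESeq2 called 9, 11 and 5.

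The other members had no common direction in JQF. H2-Aa lay above both HFD libraries in 6 of 10 populations and below both in 2, whereas H2-Ab1 lay above both in 4 and below both in 5 and H2-Eb1 above both in 3 and below both in 5. Of genes at 20 CPM or more, 25.2% to 36.3% lay above both. H2-DMb2 lay above both in 8 of 10, with few UMIs in macrophages and monocytes. In B cells H2-Aa stood at 2930.2 CPM in JQF against 2363 and 2045 CPM in HFD, while Ciita stood at 126 CPM against 239 and 176 CPM. Neither difference passed the test.

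For 5 populations with too few NCD cells, JQF was set against HFD in a fit without NCD, which was added after the data had been seen. In it 3 of 46 member tests were called, against 0.354% of gene tests, all in Cx3cr1 Ccr2 macrophages and all higher in JQF (1.79% of genes called and 1.00% higher there). Cd74 stood at 12323 and 11961 CPM in HFD and 16289.7 CPM in JQF (log2 difference 0.51 ± 0.08, adjusted p = 6.0e-05, edgeR). H2-Aa stood at 5839.6, 6134 and 7761 CPM (0.45 ± 0.11, 0.018) and H2-Eb1 at 6214, 6110.2 and 7662 CPM (0.40 ± 0.11, 0.049). JQF lay above both HFD libraries for all 3, and DESeq2 called none of them. In these macrophages macrophage markers summed to 6587 and 7033 CPM in HFD and 5354 CPM in JQF, and dendritic markers to 204, 62.5 and 219 CPM. Ribosomal protein genes took 12.4%, 12.2% and 15.2% of UMIs. The gate itself asked for UMIs of C1qa, C1qb and C1qc and allowed no Clec4f, all of them macrophage markers. The part of these values in the result was not tested. In mature dendritic cells H2-DMa gave 1.13 ± 0.18 (adjusted p = 0.67, edgeR) and H2-DMb1 0.85 ± 0.19 (0.71), with 0 of 10276 genes passing, 660 at an unadjusted p under 0.05 and 11 called by DESeq2. In Timd4- Kupffer-like cells (0.100% of genes called) Ciita stood at 121 and 93.2 CPM in HFD and 50.7 CPM in JQF (log2 difference -0.9999 ± 0.31, 0.36), in Trem2 Gpnmb macrophages (0.127%) 0 members passed, and in classical monocytes 0 of 10699 genes passed, 1220 had an unadjusted p under 0.05 and DESeq2 called 10.

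Other genes of the pathway came from 7 lists of 36 genes, of which all but H2-Ea-ps were counted. Between HFD and NCD, peptide processing gave 9 higher and 2 lower of 48 tests over the 8 populations, against 3.93% higher and 5.84% lower of all gene tests. Ifi30, the thiol reductase that opens disulfide bonds of antigens, was higher in cDC1 (1.05 ± 0.19), cDC2 (0.95 ± 0.15), nonclassical monocytes (2.45 ± 0.39), LSEC (2.53 ± 0.49) and T cells (1.33). As for the members, the part of RNA outside cells in LSEC and T cell values was not tested. Ctss, the cathepsin that trims the invariant chain, was higher in LSEC (2.31 ± 0.43, adjusted p = 2.7e-06, edgeR), and Ctsl was higher in nonclassical monocytes (1.80) but lower in cDC1 (-1.48) and cDC2 (-0.99).

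Interferon-gamma signalling, the main inducer of Ciita outside professional presenting cells, gave 0 higher and 14 lower of 56 tests in HFD, where 5.84% of all gene tests were lower. Irf1, which drives a Ciita promoter, was lower in cDC2 (-2.69 ± 0.15, adjusted p = 0.0027, edgeR), cDC1 (-1.70), pDC (-2.19) and LSEC (-2.60 ± 0.22). Socs1, a feedback inhibitor, was lower in LSEC (-3.04) and cDC2 (-2.61 ± 0.49). Co-stimulation and inhibition gave 0 higher and 13 lower of 51 tests, against the same 5.84% (10.3% in cDC2 alone), with Pdcd1lg2 in cDC1 (-4.24 ± 0.51) and Cd86 in cDC2 (-3.32 ± 0.17) at the top. CIITA partner factors gave 2 higher and 2 lower of 53 tests, lineage regulators of Ciita 2 higher and 3 lower of 32, class II turnover 1 higher of 14, with March1 in cDC2 (0.70, adjusted p = 0.046), and the other locus gene, H2-Eb2, 0 of 4, where 9.76% of all gene tests were called.

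Between JQF and HFD few pathway genes passed. Socs1 was higher in LSEC (1.49 ± 0.32, adjusted p = 0.00058, edgeR), and Ctss gave -1.67 ± 0.50 there (adjusted p = 0.044). March1 was lower in nonclassical monocytes (-1.24 ± 0.30, 0.0040). Partner factors (53 tests), co-stimulation (51) and lineage regulators (32) gave 0 calls and interferon-gamma signalling 1 higher and 1 lower of 56, where 0.937% of all gene tests were called. In the added fit without NCD, Irf4 was higher (3.77 ± 0.93, adjusted p = 0.018, edgeR) and Cd274 lower (-1.09 ± 0.31, 0.048) in JQF Cx3cr1 Ccr2 macrophages. Between populations more of them passed, for example 13 higher and 16 lower of 70 tests of co-stimulation genes, against 10.8% higher and 12.1% lower of all gene tests. In cDC1 against cDC2, where most members were not called, Irf8 was 4.54 ± 0.28 higher and Irf4 gave -2.64 ± 0.33. In mature dendritic cells against cDC2, 6 of 7 co-stimulation genes were higher, where 15.5% of all genes were, Cd274 by 3.20 ± 0.49 and Pdcd1lg2 by 2.87 ± 0.64, while 6 members were lower. Cd83, in that list, was also a marker used to check the gate. In B cells against cDC2, Pax5, the B lineage factor, gave 12.18 ± 0.50 and Spi1 gave -2.35 ± 0.30.

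Genes whose levels followed the classical chains and Cd74 most closely were named by Pearson's r over the 53 population sums, among 6658 genes with a mean of at least 20 CPM. The sums share libraries and depth, so r is a description only. Fgd2 (r = 0.928), Ifi30 (0.921), Tbc1d9 (0.913), Gm20513 (0.910), Ly86 (0.902), Rassf4 (0.902) and Ctsh (0.900) led. Gm20513 is the antisense neighbour that overlaps H2-Eb1. Of the other members, H2-DMb1 (0.955), Ciita (0.951) and H2-DMa (0.907) followed the chains closely and H2-DMb2 (0.775), H2-Oa (0.615) and H2-Ob (0.590) less so. The genes most like Ciita were Ifi30 (0.903), Ly86 (0.898), Fgd2 (0.896) and Tbc1d9 (0.886).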

How the data were processed

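Gene expression was measured by 10x 3′ single-cell RNA sequencing in 4 libraries. The UMI counts per gene and barcode were deposited by the authors as filtered and unfiltered matrices, made per the labels with Cell Ranger against mm10, and were not normalized. The submitters' notes name Cell Ranger 6.0.1 and Seurat 4.0.3. The filtered files name 7.0.0 and the unfiltered files name version 4, so whether introns were counted is not settled. Levels in droplets outside cells came from the unfiltered files and levels in cells from the filtered ones. The part of the version in that comparison was not tested. Barcodes entered the analysis with 500 or more genes and no more than 20% of UMIs from mitochondrial genes. The 16 gates used raw UMIs of marker genes, and cells meeting several gates were dropped (26 to 93 per library). Counts were summed per library and population and tested with edgeR 4.0.16 (quasi-likelihood test, TMM, filterByExpr, Benjamini-Hochberg over all genes tested, threshold 0.05) in R 4.3.3, with groups of at least 20 cells. The fits of HFD against NCD and of cDC1 against cDC2 were tested on simulated counts, and the JQF comparisons were not. The simulated counts had a preset spread, the same for every gene, and not the spread between these libraries. The shares that follow are thus not detection rates for the real counts. Of simulated 2-fold changes between HFD and NCD, 4.71% (neutrophils) to 46.3% (LSEC) were called, with 5.43% in pDC. Of 4-fold changes, 26.1% (nonclassical monocytes) to 84.0% (LSEC) were called. Between cDC1 and cDC2 the shares were 98.0% and 100%. DESeq2 1.42.0, scanpy 1.11.5 (Scrublet) and thinning to 2000 UMIs served the alternatives. Standard errors are the log2 difference divided by the square root of its F statistic. Doublets stayed in the main fit. Intervals are at 95% and cover counting error only, and a count of 0 allows up to 3 counts. All 10 members were described in every population, and pathway genes by list counts, with values for at most 4 of each list, taken by size among those that passed, and further values where a gene was called in several populations, chosen after they were seen. Of the 11 population contrasts laid out, Cxcl9 against Cx3cr1 Ccr2 macrophages was not run, since Cxcl9 macrophages reached 20 cells in 1 library. The members and lists were chosen with earlier results of these data known. RefSeq promoters were matched for 7 of the 10 members. Values of 1 pathway gene are not reported here.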

Additional observations from a re-analysis of the deposited data

Results flagged for a closer look

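For some members JQF lay outside both HFD libraries, above them in some populations and below them in others. Only populations with at least 100 UMIs of the gene in each of the 3 libraries, and with a JQF exact 95% Poisson interval clear of both HFD intervals, are listed. The values are log2 ratios of the JQF level to the HFD mean, positive where JQF was higher, and the difference between populations was not tested.

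H2-Aa gave 0.41 in B cells, 0.12 in cDC2, 0.29 in mature dendritic cells and 0.37 in Cx3cr1 Ccr2 macrophages, but -0.19 in Timd4- Kupffer-like cells. H2-Ab1 gave 0.29 in B cells, 0.53 in mature dendritic cells, 0.088 in Trem2 Gpnmb macrophages and 0.28 in Cx3cr1 Ccr2 macrophages, but -0.0704 in cDC1 and -0.25 in Timd4- Kupffer-like cells. H2-Eb1 gave 0.23 in B cells and 0.31 in Cx3cr1 Ccr2 macrophages, but -0.10 in cDC1, -0.10 in cDC2, -0.60 in pDC and -0.23 in Timd4- Kupffer-like cells. Cd74, the invariant chain, gave 0.25 in B cells, 0.14 in cDC2, 0.34 in mature dendritic cells, 0.15 in Trem2 Gpnmb macrophages and 0.42 in Cx3cr1 Ccr2 macrophages, but -0.0469 in cDC1 and -0.24 in pDC.

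H2-DMa gave 0.19 in cDC1, 1.11 in mature dendritic cells and 0.28 in Cx3cr1 Ccr2 macrophages, but -0.57 in Timd4- Kupffer-like cells. H2-DMb1 gave 0.84 in mature dendritic cells, but -0.43 in Timd4- Kupffer-like cells and -0.48 in Trem2 Gpnmb macrophages. JQF held 44 Timd4- Kupffer-like cells and 43 Trem2 Gpnmb macrophages. In Timd4- Kupffer-like cells Marco, Cd163 and Vsig4 were higher in JQF than in both HFD libraries, and Cd5l and Folr2 were lower. Marco stood at 13.5 and 44.3 CPM in HFD and 703 CPM in JQF, and Cd5l at 4105, 4555 and 2883 CPM. The part of these Kupffer cell markers in the JQF values, that of Ciita included, was not tested.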

How the results depend on the processing

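Between HFD and NCD, 19 member tests were called. Stricter gates gave 11 (of 60 tests, all 11 among the 19, with too few NCD nonclassical monocytes left to test) and no low-count filter gave 30, while other settings that could be tested gave 17 to 24. Between JQF and HFD, 4 became 2 with library totals and 0 with DESeq2, and 3 to 4 elsewhere. Between populations the 55 calls became 47 to 56 under other settings, 44 to 60 with 1 library left out and 49 with no library block. Stricter gates moved the mean Cd74 level of 3 libraries in Timd4- Kupffer-like cells to 6395 CPM and that of Ciita in Cx3cr1 Ccr2 macrophages to 262 CPM. Signs turned for 4 values, none of them then called. Between JQF and HFD these were H2-Aa in LSEC, 0.022 without HFD replicate 2 and -1.53 without HFD replicate 1, and Ciita in T cells, -0.31 with stricter gates. Between populations Ciita, with 1 library left out, gave -0.071 (HFD replicate 2) to 1.10 (NCD) for Timd4- against Timd4+ Kupffer cells and -0.90 (NCD) to 0.16 (JQF) for LSEC against T cells. The cause was not tested. H2-DMb1 in nonclassical monocytes had an adjusted p of 0.072 after thinning. No paired analysis was possible because the groups share a single replicate number. With 1 NCD and 1 JQF library, a difference from HFD cannot be told apart from a difference between libraries, and populations under 20 cells were not tested.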
